A study of Mus musculus with 8 samples.

Results

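Enterocyte genes were followed in Paneth cells (PCs) that had been purified from mouse small intestine by fluorescence-activated cell sorting. The genes were 9 of the 55414 in the count table and were chosen by name for their role in absorption. They served as a measure of how much transcript of such genes each sorted sample held. They comprised Fabp1, Fabp2, Apoa1, Apoa4, Apob and Apoc3 of lipid handling, and Alpi, Sis and Vil1 of the brush border. The study comprised 8 bulk RNA-seq libraries in 2 groups of 4. In the water group, mice drank Milli-Q water (purified laboratory water) for 7 days, and in the zinc group they drank water with 25 mM zinc sulfate (ZnSO4) for as long. Mice of both groups were then injected with TNF (tumor necrosis factor, a cytokine of inflammation) 3 hours before sampling, so every library is labelled as TNF-treated and there is no library labelled as free of TNF. Per the study's methods the mice were C57BL/6J; the sources used here do not give their age. The methods give the sorted samples as coming from individual mice, and the labels number the replicates without naming animals. Library totals ran from 10623658 to 15101627 counts.

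Enterocytes are the absorptive cells that cover the villi, whereas PCs sit at the crypt base and secrete antimicrobial peptides. After a meal, enterocytes take up fatty acids, bind them to small cytosolic carriers, rebuild them into fat and release that fat on apolipoproteins as chylomicrons. Their apical membrane, the brush border, is a dense field of actin-cored microvilli that carries the enzymes of the last digestion steps. The transcription factor HNF4A drives many of these genes. Some brush border components are made by other intestinal epithelial cells too.

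PC markers were high in all libraries. The summed level of 8 PC markers, among them Defa24, Lyz1 and Itln1, was 341259 to 614924 CPM (counts per 1000000 on TMM-scaled library sizes) across the 8 libraries. Of 10 immune and stromal markers, 6 had no count in any library, among them Itgax, Col1a1, Col3a1, Acta2 and Cdh5, and the most any of the others reached was 10 counts in all 8 libraries together. Zinc replicate 3 stood apart across all genes. Across genes, as a description, its log2 CPM correlated with the other libraries at a Pearson r of 0.847 to 0.903, while the other 7 correlated with each other at 0.954 or more. Its summed level of 13 TNF response genes was 101 CPM, against 1286 to 1614 CPM in the other 7. Why this library, labelled as TNF-treated like the others, was so low was not tested. The chemokines Cxcl1, Cxcl2 and Cxcl10 and the adhesion molecule Icam1, named after their counts were seen, had 0 counts in it. Its PC marker sum of 399935 CPM was within the range of the others, but Defa24 (165661 CPM) and Lyz1 (142038 CPM) made up most of it. Of the 8 PC markers 0 were highest in zinc replicate 3, beside 29.8% of all tested genes. Pla2g2a, named after its values were seen, was lowest in it, at 589 CPM against 1024 to 1344 CPM elsewhere. The library is called zinc replicate 3 here because it is labelled so. Fold changes of the tested members and medians of the gene lists are therefore given with and without this library. In water replicates 3 and 4, in addition, values fell with transcript length (Spearman rho across genes -0.23 and -0.24, against 0.0178 to 0.18 in the others).

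The members lie at 7 places in the genome (GRCm39). Fabp1 is on chromosome 6 (71176809 to 71182016, plus strand), Fabp2 on chromosome 3 (122688721 to 122693155, plus), Apob on chromosome 12 (8027648 to 8066835, plus) and Sis on chromosome 3 (72795890 to 72875196, minus). Vil1 (74448535 to 74475933, plus) and Alpi (87025724 to 87029328, minus) are both on chromosome 1. Apoa1 (46139878 to 46142212, plus), Apoc3 (46142527 to 46146934, minus) and Apoa4 (46151994 to 46154757, plus) form a cluster of 14.9 kb on chromosome 9, in which the ends of Apoa1 and Apoc3 face each other across 314 bases. Exonic length ran from 674 bases for Fabp1 to 13934 bases for Apob.

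Promoters are shown for the member that stood highest in zinc replicate 3 relative to the others (Alpi), for the sugar-digesting enzyme (Sis) and for the member that varied least (Vil1). RefSeq promoter sequences, of 250 bases before to 50 after the start site (build GRCm38.p6), were found for 8 of the 9 members. The 200 bases shown end at the start site of RefSeq or GENCODE, whichever lies further upstream, and each was matched to a single place on its chromosome in GRCm39. These are chr1:87029329-87029528 on the minus strand for Alpi, chr3:72875197-72875396 on the minus strand for Sis and chr1:74448335-74448534 on the plus strand for Vil1. Each is written 5′ to 3′ on the strand of its gene, and capitals mark matches to the motifs searched.
Alpi: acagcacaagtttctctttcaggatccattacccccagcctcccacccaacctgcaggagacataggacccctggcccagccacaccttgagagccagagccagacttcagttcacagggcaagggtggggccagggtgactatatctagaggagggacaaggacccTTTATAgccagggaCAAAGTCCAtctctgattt
Sis: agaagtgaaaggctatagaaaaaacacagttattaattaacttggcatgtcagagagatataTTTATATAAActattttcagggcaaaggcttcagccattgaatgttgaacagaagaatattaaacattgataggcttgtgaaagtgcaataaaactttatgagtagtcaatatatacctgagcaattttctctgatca
Vil1: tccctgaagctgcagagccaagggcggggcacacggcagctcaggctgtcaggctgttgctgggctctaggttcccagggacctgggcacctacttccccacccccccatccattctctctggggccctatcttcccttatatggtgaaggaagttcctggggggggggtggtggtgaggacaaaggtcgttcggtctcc

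All promoters were searched on both strands for 2 runs of letters. The TATA box, which positions the polymerase at many tissue-specific genes, was searched as TATAAA. The HNF4 site, bound by the factor HNF4A, was searched as CAAAGTCCA. In Alpi the capitals are a TATA box letter run on the opposite strand, which starts 33 bases before the start site, and the HNF4 letters, which start 19 bases before it. In Sis they are TATA box letters on both strands, which overlap each other, at 138 and 134 bases before the start. The sequence of Vil1 held neither. Over the whole 300 bases the HNF4 letters occurred in 1 of the 8 members (Alpi) and in 0.475% of all 32851 promoters, and the TATA box letters in 4 (Fabp1, Apob, Alpi and Sis) and in 13.6%. The other 4 promoters, of Fabp2, Apoa1, Apoa4 and Vil1, held neither. These matches describe the sequence alone.

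The first question was how much transcript of these enterocyte genes each sorted library held. Without Vil1, the other 8 members together took 22.9, 18.7, 17.3 and 23.0 of every 1000000 counts in water replicates 1 to 4, and 31.9, 27.7, 118 and 6.99 in zinc replicates 1 to 4. Zinc replicate 3 was thus 3.71 times the next highest library, and zinc replicate 4 was the lowest. The 95% Wilson interval was 113 to 124 per 1000000 in zinc replicate 3 and 5.67 to 8.61 in zinc replicate 4, and no interval of the other 6 libraries reached either; these intervals cover counting error only. In zinc replicate 3 these members held 1559 of 13167276 counts, or 0.0118%, and 7.70 counts for every 10000 counts of Lyz1 (lysozyme, a PC product). In zinc replicate 4 they held 88 counts, or 0.457 for every 10000 of Lyz1. No profile of pure enterocytes is part of the series, so these shares cannot be turned into a number of cells, and in bulk samples fewer cells of a type and less RNA per cell cannot be told apart. Which cells of a sorted sample the counts came from was not tested.

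**Figure D1:**
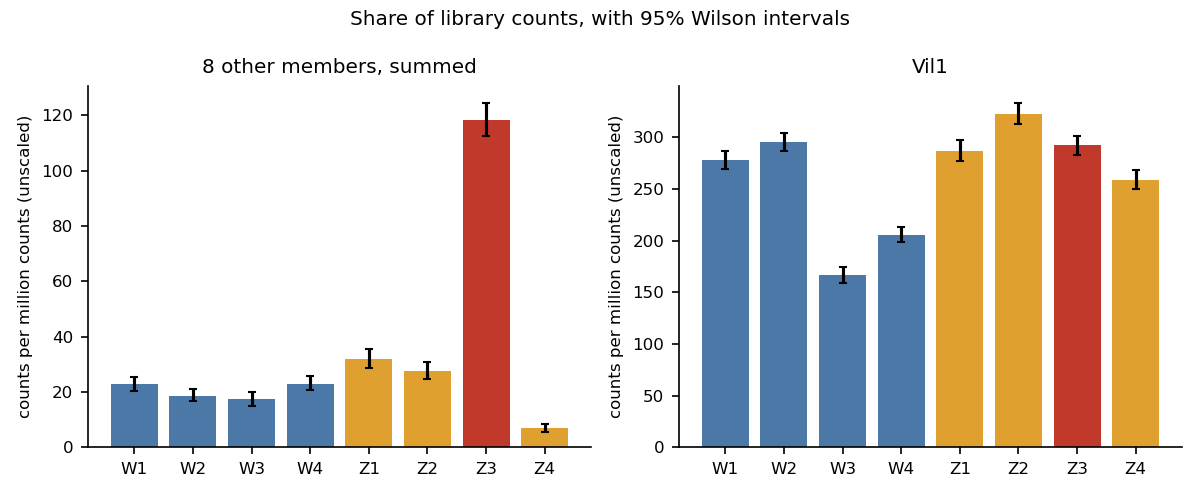
Counts of the 8 members other than Vil1, summed (left), and of Vil1 (right), per 1000000 counts of each library, for water (W1 to W4, blue) and zinc (Z1 to Z4, yellow, with zinc replicate 3 in red). Bars show the value of 1 library and error bars its 95% Wilson interval; the sum is 118 in zinc replicate 3 and at most 31.9 elsewhere, while Vil1 is 292 there, within the range of the others (167 to 323).

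Vil1 encodes villin, which bundles and severs actin in the core of microvilli. It was by far the most abundant member, at 258, 266, 221 and 231 CPM in water replicates 1 to 4 and 286, 283, 270 and 263 CPM in zinc replicates 1 to 4. The groups overlapped only between zinc replicate 4 and water replicate 2, and zinc replicate 3 was the third highest. Vil1 alone held 27006 counts over the 8 libraries, so that the summed share of all 9 members (184 in water replicate 3 to 411 in zinc replicate 3, per 1000000 counts) mostly repeats Vil1. Its mean was 244 ± 21.3 CPM in the water group and 275 ± 10.7 CPM in the zinc group (SD, n = 4). The log2 fold change, zinc over water, was 0.18 (SE 0.138, edgeR quasi-likelihood test, adjusted p 0.607), so Vil1 did not pass the threshold of 0.05. Without zinc replicate 3 the change was 0.19 (SE 0.119, edgeR adjusted p 0.715).

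The fatty acid carriers came next. Fabp2, the intestinal fatty acid binding protein, was at 8.96, 5.84, 15.4 and 12.3 CPM in water replicates 1 to 4 and at 9.93, 8.68, 29.4 and 2.02 CPM in zinc replicates 1 to 4. Every library thus held Fabp2, with 25 to 419 counts, and the zinc group contained both the highest and the lowest. Fabp1, the liver-type carrier that enterocytes make too, had 0, 2, 2 and 12 counts with water and 1, 2, 54 and 0 with zinc. In 6 of the 8 libraries Fabp1 was at or under 3 counts, the number that a count of 0 still allows, so these 6 libraries could not be told apart by Fabp1. Such a floor was worth 0.179 to 0.369 CPM. The difference of Fabp2 was 0.26 on the log2 scale (SE 0.650, edgeR adjusted p 0.883) and its direction turned without zinc replicate 3 (-0.60, SE 0.513, adjusted p 0.807).

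The apolipoproteins differed among themselves. Apob, which encodes the large structural protein around which a chylomicron is built, was at 3.35, 6.25, 5.42 and 3.04 CPM with water and at 18.3, 9.61, 20.6 and 5.08 CPM with zinc. Zinc replicates 1, 2 and 3 were above all water libraries and zinc replicate 4 lay among them. The means were 4.51 ± 1.57 and 13.4 ± 7.29 CPM, a log2 fold change of 1.57 (SE 0.427). Unadjusted, its p was 0.00426 by edgeR, but adjusted over all genes it was 0.494, so Apob did not pass. Over the alternatives run, its adjusted p was between 0.0788 (without zinc replicate 4) and 0.857 (without water replicates 3 and 4), and its log2 fold change was 1.28 or more in all of them. Without zinc replicate 3 the change was 1.28 (SE 0.400, adjusted p 0.540).

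Apoa1, the main protein of high-density lipoprotein, showed another order. It was at 6.70, 2.20, 0.738 and 5.12 CPM with water and at 0.375, 0.717, 19.1 and 0 CPM with zinc. In counts, zinc replicates 1, 2 and 4 held 4, 10 and 0, and zinc replicate 3 held 272. With all libraries the log2 fold change was 0.44 (SE 1.31, edgeR adjusted p 0.899). Without zinc replicate 3 it was -3.29 (SE 0.863, unadjusted p 0.00333, adjusted p 0.536), and the 3 remaining zinc libraries all lay below the 4 water libraries, by 0.717 against 0.738 CPM at the closest. Of all genes in that fit, 7.92% had an unadjusted p under 0.05 and 3.99% had all zinc libraries below all water libraries; 7.88% had groups that did not overlap in either direction. The direction for Apoa1 was therefore set by 1 library.

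Apoa4, an apolipoprotein made mainly by enterocytes during fat absorption, was at 0.137, 1.19, 0.369 and 3.20 CPM with water and at 1.31, 0.0717, 12.8 and 0 CPM with zinc. Its change was 1.53 (SE 1.44, edgeR adjusted p 0.668) with all libraries and -1.52 (SE 1.21, adjusted p 0.794) without zinc replicate 3. Apoc3, which slows the clearance of triglyceride-rich particles, had 2, 0, 1 and 4 counts with water and 1, 1, 15 and 0 with zinc, 24 in all. It was the sparsest member and had too few counts to be tested by edgeR with its default filter. The 3 genes of the chromosome 9 cluster were thus all highest in zinc replicate 3 and all without a count in zinc replicate 4. In the other libraries Apoa1 and Apoa4 followed different orders, with Apoa1 second highest in water replicate 1 and Apoa4 in water replicate 4. Apoc3, with 0 to 4 counts in each of these, was too sparse to be ordered.

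Among the brush border enzymes, Alpi (intestinal alkaline phosphatase, which removes phosphate from luminal substrates such as lipopolysaccharide) had 0, 3, 0 and 7 counts with water and 6, 1, 123 and 0 with zinc. Its 8.63 CPM in zinc replicate 3 was 15.4 times the next highest library, zinc replicate 1 at 0.562 CPM, the widest such gap of the 9 members. Alpi has close paralogs beside it on chromosome 1, Akp3 and Alppl2, and the sources used here do not say how reads that match several copies were counted. Sis, the sucrase-isomaltase that splits sucrose and starch fragments, was at 1.91, 1.07, 0.615 and 0.320 CPM with water and at 1.12, 4.88, 14.0 and 0 CPM with zinc. Its change was 2.30 (SE 1.14, edgeR adjusted p 0.497), and 1.01 (SE 1.02, adjusted p 0.830) without zinc replicate 3.

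**Figure D2:**
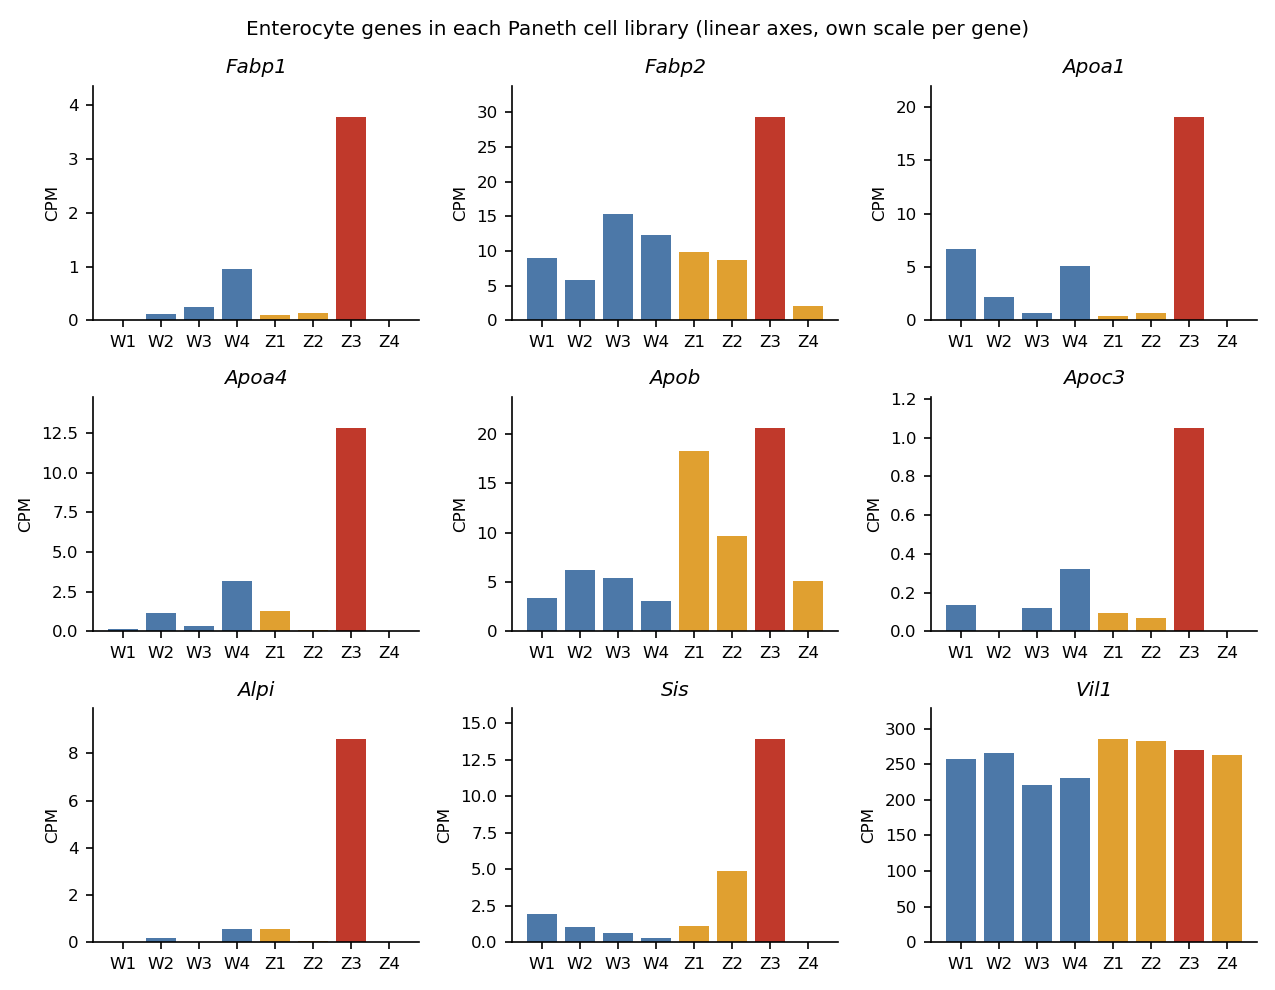
CPM of each of the 9 members in water replicates 1 to 4 (W1 to W4, blue) and zinc replicates 1 to 4 (Z1 to Z4, yellow, zinc replicate 3 in red), 1 bar per library, linear axes from 0 with a scale of their own. Zinc replicate 3 is highest for 8 of the 9 members, Vil1 being the exception, and zinc replicate 4 has no count for 6.

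Across the members, zinc replicate 3 was the highest of the 8 libraries for 8 of 9, and over 2 times the next highest for 6 (Fabp1, Apoa1, Apoa4, Apoc3, Alpi and Sis). Its lead over the next highest library was 1.13 times for Apob, 1.91 times for Fabp2, 2.85 times for Apoa1, 2.86 times for Sis, 3.29 times for Apoc3, 3.95 times for Fabp1 and 4.02 times for Apoa4. Among the members that passed the expression filter it was highest for 5 of 6, where the share over all 10707 tested genes was 29.8%, and over 2 times the next highest for 3 of 6, where that share was 3.55%. Of these 3, Apoa4 passed the filter with the help of zinc replicate 3. It held 20 and 40 counts in water replicates 2 and 4, 14 and 183 in zinc replicates 1 and 3, and 0 to 3 elsewhere. Zinc replicate 4 had no count for 6 of 9 members and was the lowest or joint lowest for 7. Among the tested members it was the lowest for 4 of 6 (Fabp2, Apoa1, Apoa4 and Sis), where the share over all tested genes was 12%. Only zinc replicate 3 and water replicate 4 held more than 3 counts of every member, and zinc replicate 4 did so for 3 members. Second place was scattered, with water replicate 4 second for 3 members, zinc replicates 1 and 2 for 2 each, and water replicates 1 and 3 for 1 each. For Apoc3 and Alpi second place rested on 4 and 6 counts. The rule by which these genes were taken up already named zinc replicate 3 as standing apart, so its lead is a description.

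The mix of members also differed between libraries. Of the counts of the 8 members other than Vil1, Fabp2 made up 67.2% in water replicate 3 but 26.9% in zinc replicate 3, and Apob 11.8% in water replicate 4 but 57.5% in zinc replicate 1 and 71.6% in zinc replicate 4. Apoa1 made up 31.6% in water replicate 1 and 1.18% in zinc replicate 1. Alpi made up 7.89% in zinc replicate 3 and at most 2.17% elsewhere. The members were therefore not in 1 fixed ratio in all libraries, also when zinc replicate 3 is set aside. Over the 7 libraries without it, the correlation of log2 CPM between tested members ran from -0.539 (Apoa1 and Apob) to 0.688 (Apob and Vil1); these points share their libraries and scaling.

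**Figure D3:**
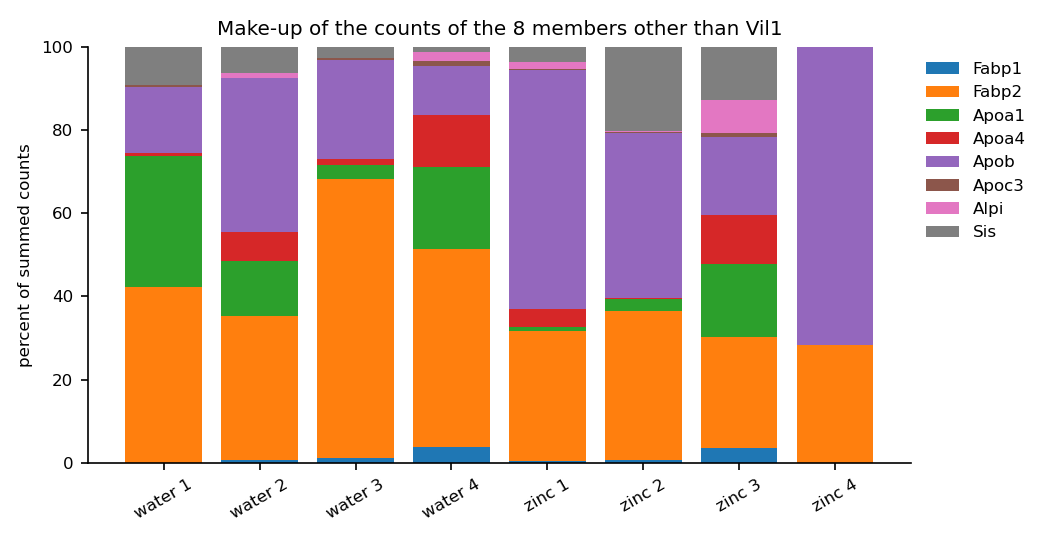
Make-up of the counts of the 8 members other than Vil1, in percent of their sum, 1 bar per library and 1 colour per gene. Fabp2 ranges from 26.9% to 67.2% and Apob from 11.8% to 71.6%, and zinc replicate 4 holds Fabp2 and Apob alone.

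Per kilobase of exon, the order of levels was clear only at the top. In the 7 libraries without zinc replicate 3, the median was 54.2 CPM per kilobase for Vil1 (range 45.5 to 58.9) and 9.28 for Fabp2 (2.09 to 15.9), and these 2 ranges did not overlap. Below them came Apoa1 (0.432), Apob (0.389), Apoa4 (0.203), Fabp1 (0.177), Sis (0.144), Alpi (0.0307) and Apoc3 (0.0297), each with a range that overlapped that of the gene before it. In zinc replicate 3 the order was Vil1 (55.7), Fabp2 (30.5), Apoa1 (11.2), Apoa4 (7.08), Fabp1 (5.62), Alpi (3.69), Sis (1.87), Apob (1.48) and Apoc3 (0.333). Apob thus stood above Apoa4, Fabp1, Sis and Alpi in the median of the other libraries and below all of them in this one.

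The second comparison was zinc against water for the members as a group. Of the 9 members 6 passed the expression filter, and 0 of them passed an adjusted p of 0.05 by edgeR; over all 10707 tested genes the share called was 0%. At an unadjusted p under 0.05 there was 1 member, Apob, where 1074 genes (10%) had such a p. DESeq2 gave no p for Fabp1, Apoa4 and Alpi; of the other 6 members it called 0, of 4 genes (0.0213%) in all, and 6.86% of genes had an unadjusted p under 0.05. The groups were apart for 0 of the 6 members and for 5.87% of all tested genes, with zinc above in 2.76% and below in 3.12%. The fold change was above 0 for 6 of 6 members, where 50.8% of all tested genes were above 0, and the median was 0.99 beside 0.0062 over all tested genes. Without zinc replicate 3 that median was -0.20, with Fabp2, Apoa1 and Apoa4 below 0 and Apob, Sis and Vil1 above. Fabp1, Apoc3 and Alpi did not pass the filter and were not tested. The summed share of the 8 members other than Vil1 was 20.5 ± 2.90 per 1000000 counts with water and 46.3 ± 49.3 with zinc (SD, n = 4 each), and 22.2 ± 13.3 with zinc when replicate 3 was left out (n = 3).

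**Figure D4:**
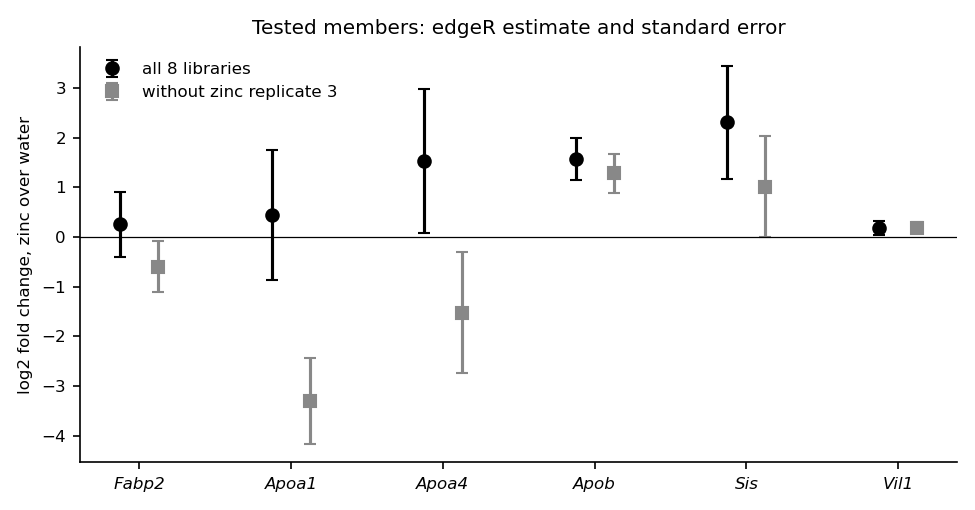
Log2 fold change of the 6 tested members, zinc over water, by edgeR with all 8 libraries (circles) and without zinc replicate 3 (squares); bars show 1 standard error. Fabp2, Apoa1 and Apoa4 move from above 0 to below 0 when that library is left out, and Apob stays at 1.28 or more.

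Other genes of absorption were then examined as fixed lists. Of 18 further genes of lipid absorption 13 were tested and 0 passed by edgeR. The fold change was above 0 for 7 and below for 6 (median 0.08, and 0.017 without zinc replicate 3). In zinc replicate 3, 8 of the 13 were highest, beside the 29.8% of all tested genes. Acsl5, which activates fatty acids, Plin3, a lipid droplet coat protein, and Sar1b, a GTPase of chylomicron export, were the most abundant and were there at 0.97, 1.13 and 0.667 times the highest of the other 7 libraries. The largest ratios belonged to Dgat2 (triglyceride synthesis), Mttp (which loads lipid on to Apob) and Abcg5 (sterol export), at 4.56, 3.56 and 2.25 times the median of the other 7. Among the genes of the list that were not tested, Rbp2, a retinol carrier of enterocytes named after its counts were seen, had 105 counts in zinc replicate 3 and 4 to 15 elsewhere. Fabp6, the ileal bile acid carrier, also named after its counts were seen, had 8 there and 0 to 80 elsewhere, most in zinc replicate 2.

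Of 18 genes of sugar and peptide absorption 12 were tested, 0 passed, and 10 had a fold change above 0 (median 0.55; 0.12 without zinc replicate 3). Zinc replicate 3 was highest for 8 of the 12. Anpep, an aminopeptidase of the brush border, was at 357 CPM there and at 110 CPM or less elsewhere. Slc2a5, the fructose transporter, was at 5.03 times the median of the other 7 libraries. Mgam, the maltase-glucoamylase, went the other way and was lowest in that library, at 70.5 CPM beside a median of 127 CPM. Lct, the lactase of the proximal small intestine, was not tested and is named after its counts were seen; it had 117 counts in zinc replicate 3 and 0 to 4 in each of the others.

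For structural genes of the brush border the summed level was 1166 CPM in zinc replicate 3, within the range of the other 7 libraries (997 to 1264 CPM). Of 12 genes 11 were tested, 0 passed by edgeR and 9 had a fold change above 0 (median 0.16, and 0.092 without zinc replicate 3). Zinc replicate 3 was highest for 7 of the 11 and lowest for 1. The most abundant were Cdhr5, a protocadherin that links microvilli, Myo7b, a myosin of the microvillus tip, and Ezr, which ties actin to the membrane, at 374, 109 and 168 CPM in zinc replicate 3 and medians of 407, 205 and 178 CPM elsewhere. Krt20, Anks4b and Espn had the largest ratios to the median of the others, 4.11, 2.80 and 2.35 times.

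Transcription factors of enterocytes were split. Their summed level was 704 CPM in zinc replicate 3, below the other 7 libraries (953 to 1122 CPM). Hnf4a was at 208 CPM in zinc replicate 3 and at 142 CPM or less elsewhere. Elf3 and Klf5, the most abundant factors listed, were lowest in that library, at 133 and 65.3 CPM beside medians of 452 and 203 CPM. Creb3l3, a factor that activates apolipoprotein genes, was named after its values were seen and had 58 counts in zinc replicate 3 and 0 to 6 elsewhere. Of 14 factors 13 were tested and 0 passed, with 8 above 0 and 5 below (median 0.21). Without zinc replicate 3 the median was 0.068, over 12 factors. Of the 13, zinc replicate 3 was highest for 5 and lowest for 3. Of 6 genes listed for the villus tip 3 were tested. Of these 0 were highest in zinc replicate 3, too few genes to set against the 29.8% of all tested genes, and in it the purine enzyme Ada, the nucleoside transporter Slc28a2 and Fos were at 2.39, 0.842 and 40.6 CPM beside medians of 2.72, 1.12 and 41.0 CPM. Their fold changes, zinc over water, lay from -0.49 to -0.32 (median -0.42, and -0.46 without zinc replicate 3). No adjusted p passed the threshold (smallest unadjusted p 0.0273 by edgeR, for Fos), and Nt5e had no count in any library. Enpp3, which was not tested and is named after its values were seen, was highest in zinc replicate 3, at 13 counts beside 2 to 11 elsewhere. Pmp22, likewise not tested and named after its values were seen, had 0 counts there and 0 to 20 elsewhere.

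Markers of other epithelial cells in zinc replicate 3 were then compared with the other libraries. Of the 7 tested crypt stem cell markers 6 were highest in it, beside 29.8% of all tested genes. Named after their values were seen, Rgmb, Lgr5 and Axin2 were at 2.87, 2.32 and 2.10 times the highest of the other 7 libraries. Cdk6, Slc12a2, Smoc2 and Olfm4 were at 1.70, 1.11, 1.09 and 0.754 times. Over all tested genes, 3.55% were over 2 times. The summed level of the list, with Olfm4, Slc12a2 and Smoc2 the most abundant, was 1161 CPM, next to 1110 CPM in zinc replicate 1 and 436 to 796 CPM elsewhere. Of the 8 goblet cell markers 3 were highest there. Named after their values were seen, these were Fcgbp, Zg16 and Clca1, at 1270, 109 and 82.2 CPM. Their highest values in the other 7 libraries were 318, 48.1 and 54.9 CPM. Tff3, Agr2, Atoh1, Spdef and Muc2 were at 0.985, 0.764, 0.737, 0.576 and 0.284 times the highest of the other 7. The sum of the 8 markers, 5953 CPM, was within the range of the others (3824 to 10472 CPM). Muc2, Agr2 and Tff3 were the most abundant over all libraries, and Muc2 alone held 2640 CPM of the sum in zinc replicate 3. Proliferation genes such as Pcna, Mki67 and Top2a summed to 90.0 CPM there and to 42.1 to 94.5 CPM elsewhere. Of the 8 enteroendocrine and tuft cell markers 3 were tested and 2 of them, Dclk1 and Trpm5, were highest in it, while Sct was not; the sum was 32.8 CPM against 16.8 to 30.7 CPM. Of the 13 TNF response genes 12 were lowest in it and Tnfaip2 was highest, and among the 12 were Nfkbia, Nfkb2 and Birc3 at 28.6, 25.3 and 9.19 CPM beside medians of 493, 240 and 226 CPM. The part of these differences in the level of the members was not tested. Between zinc and water, 0 genes of these lists passed by edgeR; the medians were 1.30 for stem cell, 1.03 for goblet cell, 1.01 for proliferation, 0.37 for enteroendocrine and tuft cell, -0.50 for TNF response and -0.28 for PC markers, and 0.78, 0.85, 0.91, -0.34, -0.15 and -0.24 without zinc replicate 3.

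**Figure D5:**
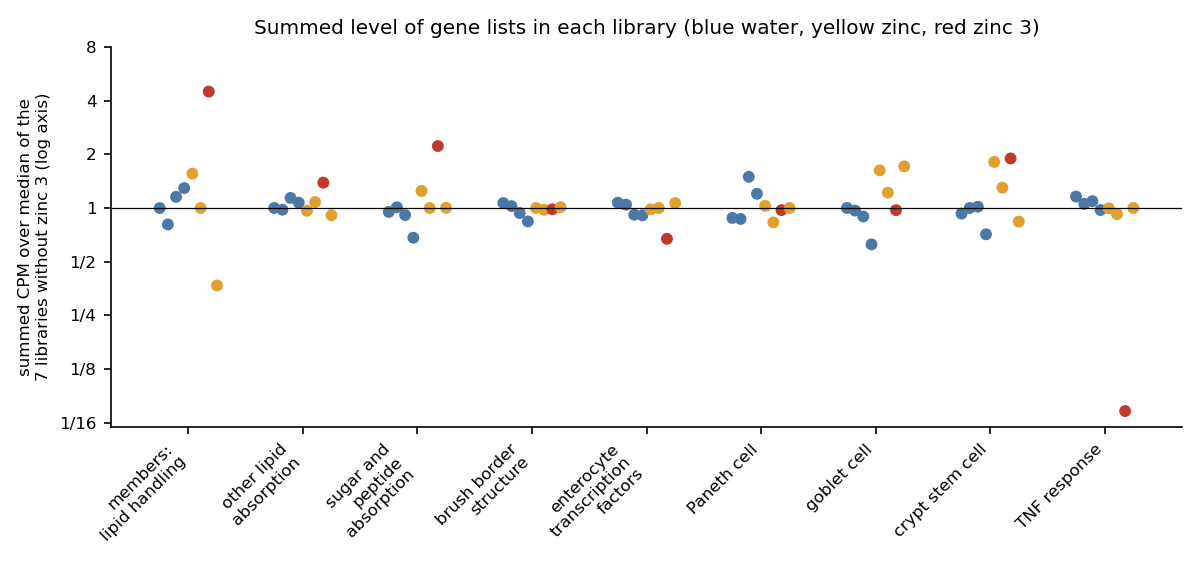
Summed CPM of 9 gene lists in each library, divided by the median of the 7 libraries without zinc replicate 3 (log axis), with water in blue, zinc in yellow and zinc replicate 3 in red, libraries from left to right as water 1 to 4 and zinc 1 to 4. Zinc replicate 3 is above the rest for the lipid handling members (86.8 CPM against 7.10 to 30.1) and for sugar and peptide absorption (616 CPM against 188 to 345), level with them for brush border structure, and far below for the TNF response (101 CPM against 1286 to 1614). It is also below the rest for enterocyte transcription factors (704 CPM against 953 to 1122).

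The genes whose level was most like that of the members were sought by Pearson correlation of log2 CPM with the mean of the 6 tested members, a description over points that share library and depth. Over all 8 libraries the closest of 10701 genes were Hsf1 (0.969), Auh (0.966), Plin2 (0.964), Whrn (0.957), Isoc1 (0.957), Fam3a (0.954), Zfp467 (0.952) and Zmym3 (0.951), and 64 genes were above 0.9. Plin2, which coats lipid droplets, was the only one of these in the lists used here. All 8 were highest in zinc replicate 3, for example Plin2 at 10.9 CPM beside at most 7.84 CPM elsewhere. Over the 7 libraries without it the closest were E2f6 (0.988), Resf1 (0.978), Zfp961 (0.976), Wdr55 (0.965) and Rpl14-ps1. Of these, E2f6 and Zfp961 correlated at 0.95 and 0.934 over all 8 libraries too, Rpl14-ps1 at 0.717, Wdr55 at 0.0987 and Resf1 at -0.274. The first 8 genes correlated at 0.865 to 0.931 over the 7 libraries.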

How the data were processed

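The submitters' processing notes name FastQC 0.12.0, STAR 2.7.10a, DESeq2 and the build mm39. The study's methods describe an alignment to a GENCODE annotation with another STAR release for its own re-mapping, and do not say that it made this table. The counter and the rule for reads with several matches are not given in the sources used here. The authors deposited raw counts per Ensembl gene, 1 column per library (polyadenylated RNA, stranded kit). Of 55414 identifiers 54749 matched GENCODE M39 (GRCm39), used for symbols, coordinates and exonic length; the other 665 held 0.00443% of counts. Groups followed the sample titles. No 2 libraries agreed within sampling noise (smallest chi-square per degree of freedom 6.51 over 28 pairs).

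Zinc was compared with water by edgeR 4.0.16 (robust quasi-likelihood F-test, TMM factors, default filter, R 4.3.3), which kept 10707 genes with 99.89% of counts. Benjamini-Hochberg adjustment was over these genes, with a threshold of 0.05. Only some members passed the filter, and a gene high in 1 group can pass through that group. Alternatives used DESeq2 1.42.0, limma 3.58.1 (voom), other scalings, filters and sets of libraries. Levels are CPM on TMM-scaled library sizes. Shares carry 95% Wilson intervals; these and the floor of 3 counts cover counting error only. Genes named were all members, and from each list the 3 tested genes of highest mean CPM; from the lists of lipid absorption, of sugar and peptide absorption and of brush border structure also the 3 of largest ratio of zinc replicate 3 to the median of the other 7; others are said to be named after their values were seen. Some genes that this rule names are not reported here. The members and lists were chosen with earlier results of these data known. Promoters came from RefSeq.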

Additional observations from a re-analysis of the deposited data

Results flagged for a closer look

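Dixon's criterion at the 95% level, which divides a library's distance from its nearest neighbour by the whole range, was applied to both groups for every member and for the summed share with and without Vil1. It marked 5 of 22 sets of 4 values, and all 5 were zinc replicate 3 in the zinc group. There Fabp1 was at 3.79 CPM (next highest zinc library 0.143), Apoa1 at 19.1 CPM (0.717), Apoa4 at 12.8 CPM (1.31), Apoc3 at 1.05 CPM (0.0937) and Alpi at 8.63 CPM (0.562). Zinc replicate 3 was already known to stand apart on these genes when they were chosen, and the genes of 1 library are not independent of each other, so these marks are a description; the criterion alone marks about 1 in 20 sets by chance. Fabp2, Apob, Sis, Vil1 and the sums did not stand out by this measure.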

How the results depend on the processing

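No member with a p was called under any alternative run; DESeq2 gave none for Fabp1, Apoa4 and Alpi. Over all genes 0 were called, except 4 by DESeq2 and 1 without water replicate 4 (range over left-out libraries 0 to 1). The count at an unadjusted p under 0.05, 1074, ran from 626 (without water replicate 3) to 1940 (without zinc replicate 4), and was 306 without water replicates 3 and 4. The median of the tested members, 0.99, was -0.0064 by limma-voom with sample weights and 0.17 with the replicate number as a block, and with 1 library left out lay between -0.20 (zinc replicate 3) and 1.34 (zinc replicate 4). Apob, Sis and Vil1 kept their direction under all alternatives. By limma-voom with sample weights Fabp2 was at -0.19, Apoa1 at -2.90 and Apoa4 at -1.42. With the replicate block Fabp2 was at -0.088 and Apoa1 at -1.65. With 1 library left out, Fabp2 ran from -0.60 to 0.61, Apoa1 from -3.29 to 0.89 and Apoa4 from -1.52 to 2.56, each lowest without zinc replicate 3. The block changed no call. The labels do not say that replicate numbers pair mice, and same-numbered libraries deviated from their group means with correlations of -0.0275 to 0.0266 across genes; 0 of the 4 water libraries correlated best with the zinc library of its number. The summed share of all 9 members, higher with zinc by 79.6 per 1000000 counts, was 54.9 (zinc replicate 3 left out) to 103 (zinc replicate 4 left out) higher, 29.3 without water replicates 3 and 4, 25.8 without Vil1 and 121 per 1000000 counts outside the alpha-defensin genes. Zinc replicate 3 was highest for 8 members also in TPM and with DESeq2 size factors. With no filter, Fabp1, Apoc3 and Alpi were at 1.62, 1.08 and 3.53 (edgeR adjusted p 0.661, 0.664 and 0.605). Depth limits Fabp1, Apoc3 and Alpi, which held 3 counts or fewer in 6, 6 and 5 of the 8 libraries.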
